A study of Homo sapiens with 12 samples.

Results

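The genes described here are 33 of the 15822 loci measured in HepaRG cells: genes that low oxygen is known to induce, together with the enzymes of glycolysis. They come from a list of 34 symbols, and every locus whose gene symbol equals a listed symbol was taken. HK1, the remaining symbol, was not analysed here. The list was drawn up with earlier results of these libraries in view, among them the fall of CA9 with PB in WT cells and of NDUFA4L2 with PB in KO cells, so every comparison that uses a PB library is given for the members as a description with no p-value. Which other results were in view is not recorded, and the DMSO libraries serve all comparisons, so counts of members elsewhere are descriptions too. HepaRG is a human hepatoma line whose cultures can hold hepatocyte-like and biliary-like cells. RNA sequencing libraries were made from wild-type cells (WT) and from cells in which the gene for the human constitutive androstane receptor (CAR) was knocked out (hCAR-KO, here KO). Each genotype was given the solvent DMSO, phenobarbital (PB, an indirect activator of CAR) or CITCO (a synthetic agonist of human CAR), with 2 libraries in each of the 6 groups. Dose, exposure time, oxygen level, medium, the way the gene was disrupted and whether the KO cells are 1 clone stand in no label. The labels do not say that duplicates came from separate cultures, so errors and p-values cover only how far duplicate libraries differ, and that spread may be technical.

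Cells sense oxygen through prolyl hydroxylases (the EGLN family), which mark the alpha subunits of the hypoxia-inducible factors (HIF1A and EPAS1) so that the VHL complex destroys them. When oxygen is low the alpha subunits persist, pair with ARNT and bind the hypoxia response element, whose core is ACGTG or GCGTG. Their targets shift energy supply from mitochondria to glycolysis, export acid and call for blood vessels and red cells. In liver the oxygen gradient along the lobule is accompanied by a gradient of glucose metabolism, and CAR is best known there for inducing enzymes that clear drugs.

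Levels are the authors' normalized CPM (read counts scaled to a common library size), whose library totals were 1071810 to 1113721 in WT and 900290 to 935052 in KO libraries. The WT libraries held 49258123 to 66453415 reads, recovered from the size of the smallest steps in their values. NR1I3, which encodes CAR, stood at 11.5 and 11.97 under DMSO, 14.8 and 15.5 under PB, and 9.70 and 9.33 under CITCO in WT cells and at 11.0 and 10.6 under DMSO, 16.2 and 15.6 under PB, and 9.63 and 10.7 under CITCO in KO cells. A transcript level does not check the genotype, since the labels do not place the edit. The 7 hepatocyte markers found in the table summed to 140309 to 157914 CPM in WT and 58033 to 61055 CPM in KO libraries, led by ALB, although FGB was higher in KO libraries and TTR overlapped. The 4 biliary markers found summed to 377 to 467 CPM and 104 to 121 CPM, led by KRT19, while KRT7 (0.357 to 1.09 against 1.51 to 2.27 CPM) and SPP1 (11.5 to 20.9 against 29.2 to 37.1 CPM) were higher in KO libraries. The 5 mesenchymal markers summed to 116 to 132 CPM and 231 to 250 CPM, with ACTA2 and DCN higher in every KO library and COL1A1, COL3A1 and POSTN overlapping. In these bulk cultures fewer cells of a type and less RNA per cell cannot be told apart. All 33 members passed the filter of at least 1 CPM in at least 2 libraries, though ENO2 and EPO passed through the KO libraries only.

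Promoter sequences were searched for the HIF core motif. RefSeq start sites on GRCh38.p14 matched 30 members with 43 promoters, of which the 250 bases upstream were searched on both strands. ACGTG lay in 22 of the 43 (51.2%), against 18.5% of all 35116 promoters and 21.9% of those of the loci tested here. GCGTG lay in 41.9%, against 32.2% of all promoters and 42% of those of tested loci. The palindrome CACGTG, which holds ACGTG on both strands and is also the E-box core, lay in 20.9% of member promoters and 6.34% of all promoters. A match is a string of letters and not a site of binding. As described below, the PB response was called different between genotypes for CA9, LDHA and EGLN3, each call being lost with a constant prior variance. LDHA also lost its call with total scaling and when the CITCO libraries were left out. The 4 promoters printed here are those of these genes and of PGK1, for which that difference was near 0. Capitals mark ACGTG or GCGTG, or their reverse complements CACGT and CACGC, and each runs 5′ to 3′ on the gene's strand up to the base before the start site.
CA9, chr9:35673678-35673927, plus strand: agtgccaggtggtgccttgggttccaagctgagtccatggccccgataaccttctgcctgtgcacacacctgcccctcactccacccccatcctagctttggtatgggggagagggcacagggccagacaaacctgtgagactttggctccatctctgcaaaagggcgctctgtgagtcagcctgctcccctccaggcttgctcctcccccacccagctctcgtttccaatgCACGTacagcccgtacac
LDHA, chr11:18394313-18394562, plus strand: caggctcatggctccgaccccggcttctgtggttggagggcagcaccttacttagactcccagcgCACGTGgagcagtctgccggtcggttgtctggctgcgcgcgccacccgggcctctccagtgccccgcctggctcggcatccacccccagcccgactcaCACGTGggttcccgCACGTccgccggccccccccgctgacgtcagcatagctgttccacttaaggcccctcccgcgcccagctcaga
PGK1, chrX:78103998-78104247, plus strand: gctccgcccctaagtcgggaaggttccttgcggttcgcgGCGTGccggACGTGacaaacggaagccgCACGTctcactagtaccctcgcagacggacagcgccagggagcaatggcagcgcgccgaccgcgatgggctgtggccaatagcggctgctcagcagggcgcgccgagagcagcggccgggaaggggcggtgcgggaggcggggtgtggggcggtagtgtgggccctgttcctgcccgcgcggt
EGLN3, chr14:33951075-33951324, minus strand: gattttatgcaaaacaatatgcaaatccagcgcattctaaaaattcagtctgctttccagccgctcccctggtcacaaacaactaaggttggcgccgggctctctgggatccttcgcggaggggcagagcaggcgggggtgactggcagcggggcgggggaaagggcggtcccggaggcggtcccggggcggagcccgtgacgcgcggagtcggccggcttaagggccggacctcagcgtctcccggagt
CA9 carried 1 ACGTG on the minus strand, printed as CACGT, whose leftmost printed base lay 18 bases before the start site. LDHA carried 5 ACGTG matches, 4 of them in 2 CACGTG palindromes, and PGK1 carried 2 ACGTG and 1 GCGTG. EGLN3 carried none in this window, which says only that these letters are absent from it. A second LDHA start site had 1 GCGTG.

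The order of the 6 groups was much alike among the members. The mean was highest in KO DMSO for 25 of 33 members, against 17% of all tested loci, and lowest in WT PB for 25, against 20.8%. Every KO library stood above every WT library for 28 of 33 members, against 24.6% of tested loci, and the libraries of the genotypes overlapped for the other 5 (CA9, NDUFA4L2, MXI1, PFKP and PFKL). ENO2 and EPO are among the 28 but passed the filter through the KO libraries only, so the filter set their direction between genotypes. ENO2 is also among the 25 members highest in KO DMSO. The summed level of the 33 members was 8579.9 ± 3.45 CPM in WT DMSO, 7287 ± 101 in WT PB and 8165 ± 5.39 in WT CITCO (SD, n = 2). In KO cells it was 13028 ± 384 under DMSO, 11762 ± 56.6 under PB and 11914 ± 58.5 under CITCO. The 14 members of glucose entry and glycolysis held 7248 of the 8579.9 CPM in WT DMSO, so the sum mostly follows them. CPM is not corrected for transcript length, so levels are compared between groups and not between genes.

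**Figure D1:**
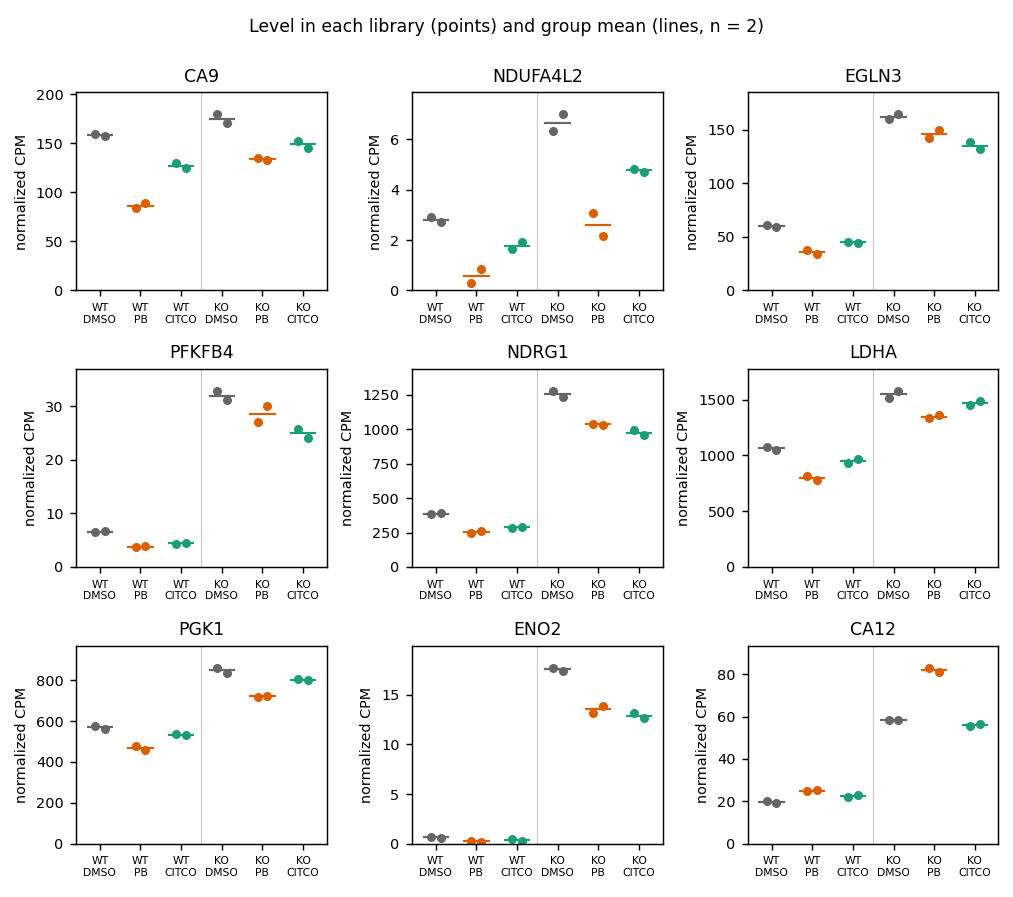
Level of 9 members in every library, in normalized CPM on linear axes that start at 0 (points: libraries; lines: means of 2). CA9 and NDUFA4L2 are lowest in WT PB and their genotypes overlap, whereas every KO library is above every WT library for the other 7.

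The first comparison asked how PB changed the members in WT cells. Of 33 members, 21 fell and 1 rose (limma on log2(CPM + 0.5), Benjamini-Hochberg adjusted p under 0.05 over all 15792 loci tested), where 6.42% of all loci were called (2.66% higher, 3.76% lower). The median member difference was -0.26 on the log2 scale, that of all loci was 0, and 32 of 33 differences were negative. The largest were those of NDUFA4L2 (-1.69, SE 0.20), EPO (-0.89, SE 0.19) and CA9 (-0.87, SE 0.046). EGLN3 (-0.73), PFKFB4 (-0.72), ENO2 (-0.61), NDRG1 (-0.60) and PDK1 (-0.51) followed, and CA12 alone rose (0.35, SE 0.057). Because this contrast was in view when the genes were listed, nothing is read from the count. On recovered reads edgeR called 15 of 31 members and 561 of 15219 loci, and DESeq2 called 17 of 31. Fitting the WT PB and WT DMSO libraries alone called 12 of 31. In the authors' deposited table of this comparison 15 of 30 members had an FDR under 0.05, 14 of them lower. The hepatocyte marker sum was 157914 and 152963 CPM under DMSO and 157839 and 150786 under PB, and the sum of the 3 endothelial markers found was 115 and 106 against 83.1 and 82.2. CD14, the only 1 of 6 listed macrophage markers found, was 3.70 and 4.30 against 7.46 and 7.84 CPM. A single marker does not show which cells were present. The part of these markers in the result was not tested.

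CITCO acts on CAR directly, and its responses were measured in the same way. In WT cells 11 of 33 fell and none rose, where 2.2% of all loci were called (1.18% higher, 1.02% lower), and the median was -0.18. PFKFB4 fell by 0.53 (SE 0.088, adjusted p = 0.00207), NDRG1 by 0.42 (SE 0.037, adjusted p = 1.11e-06) and EGLN3 by 0.42 (SE 0.052, adjusted p = 0.000118). P4HA1 (-0.38), PDK1 (-0.37), CA9 (-0.32), KDM3A (-0.27) and BHLHE40 (-0.24) came next, and BNIP3, VEGFA and LDHA were called at 0.21 or less. The number of calls rested on the model and on single libraries. It was 3 of 31 members by edgeR (136 of 15219 loci), 6 of 31 by DESeq2, 3 with a constant prior variance and 5 of 31 when the libraries of other groups were left out. It was 7 without WT DMSO replicate 1, 13 without WT DMSO replicate 2, 5 without WT CITCO replicate 1 and 6 without WT CITCO replicate 2. PFKFB4, NDRG1, EGLN3 and CA9 kept their calls in all 4 of these fits. PFKFB4 lost its call when the libraries of other groups were left out (adjusted p = 0.0798), by edgeR (adjusted p = 0.0845) and by DESeq2 (adjusted p = 0.106), and CA9 lost its call with a constant prior variance (adjusted p = 0.0529). P4HA1 lost its call without WT CITCO replicate 1, PDK1 without WT DMSO replicate 1 or WT CITCO replicate 1, BHLHE40 without WT DMSO replicate 1 or WT CITCO replicate 2, and KDM3A without any of these 3 libraries. The hepatocyte marker sum was 157914 and 152963 CPM under DMSO and 140363 and 140309 under CITCO, with 2 of 7 markers called lower, and CD14 was 3.70 and 4.30 against 6.65 and 5.14 CPM and called higher; their part in the result was not tested. In KO cells CITCO lowered 6 members and raised none, where 0.811% of all loci were called (0.386% higher, 0.424% lower). They were NDRG1 (-0.36, SE 0.037, adjusted p = 2.47e-05), SLC2A1 (-0.27), EGLN3 (-0.26), PFKFB3 (-0.25), CA9 (-0.23) and BNIP3 (-0.17). This count was 0 with a constant prior variance, 1 without KO DMSO replicate 1, without KO CITCO replicate 1 or without KO CITCO replicate 2, and 3 without KO DMSO replicate 2. NDRG1 kept its call in these 4 fits, and the other 5 named lost theirs in each of them.

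In KO cells the PB response was measured without a working CAR gene, as the label has it. Of 33 members, 11 fell and CA12 rose, where 6.96% of all loci were called (3.87% higher, 3.09% lower), with a median of -0.15. NDUFA4L2 (-1.21, SE 0.20), PFKFB3 (-0.54, SE 0.054) and CA9 (-0.39, SE 0.046) fell most. PFKP (-0.31), NDRG1 (-0.28), PGK1 (-0.23), LDHA (-0.20) and SLC2A1 (-0.18) followed, then ENO1, BNIP3 and GPI. CA12 rose by 0.49 (SE 0.057). The count was 7 without KO PB replicate 1 and 7 without KO PB replicate 2, and 6 with a constant prior variance. SLC2A1 lost its call without any 1 of the 4 libraries, and PFKP without KO DMSO replicate 2, KO PB replicate 1 or KO PB replicate 2. EPO differed by 0.55 and was not called. In KO cells the hepatocyte marker sum was 61055 and 59288 CPM under DMSO and 59883 and 60644 under PB. The endothelial sum, again led by KDR (61.5 to 87.9 CPM over the KO libraries), was 88.0 and 93.1 against 65.8 and 66.7 CPM. CD14 was 7.23 and 6.13 against 18.8 and 17.6 CPM. Both differed without overlap, and the part of these markers in the result was not tested.

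**Figure D2:**
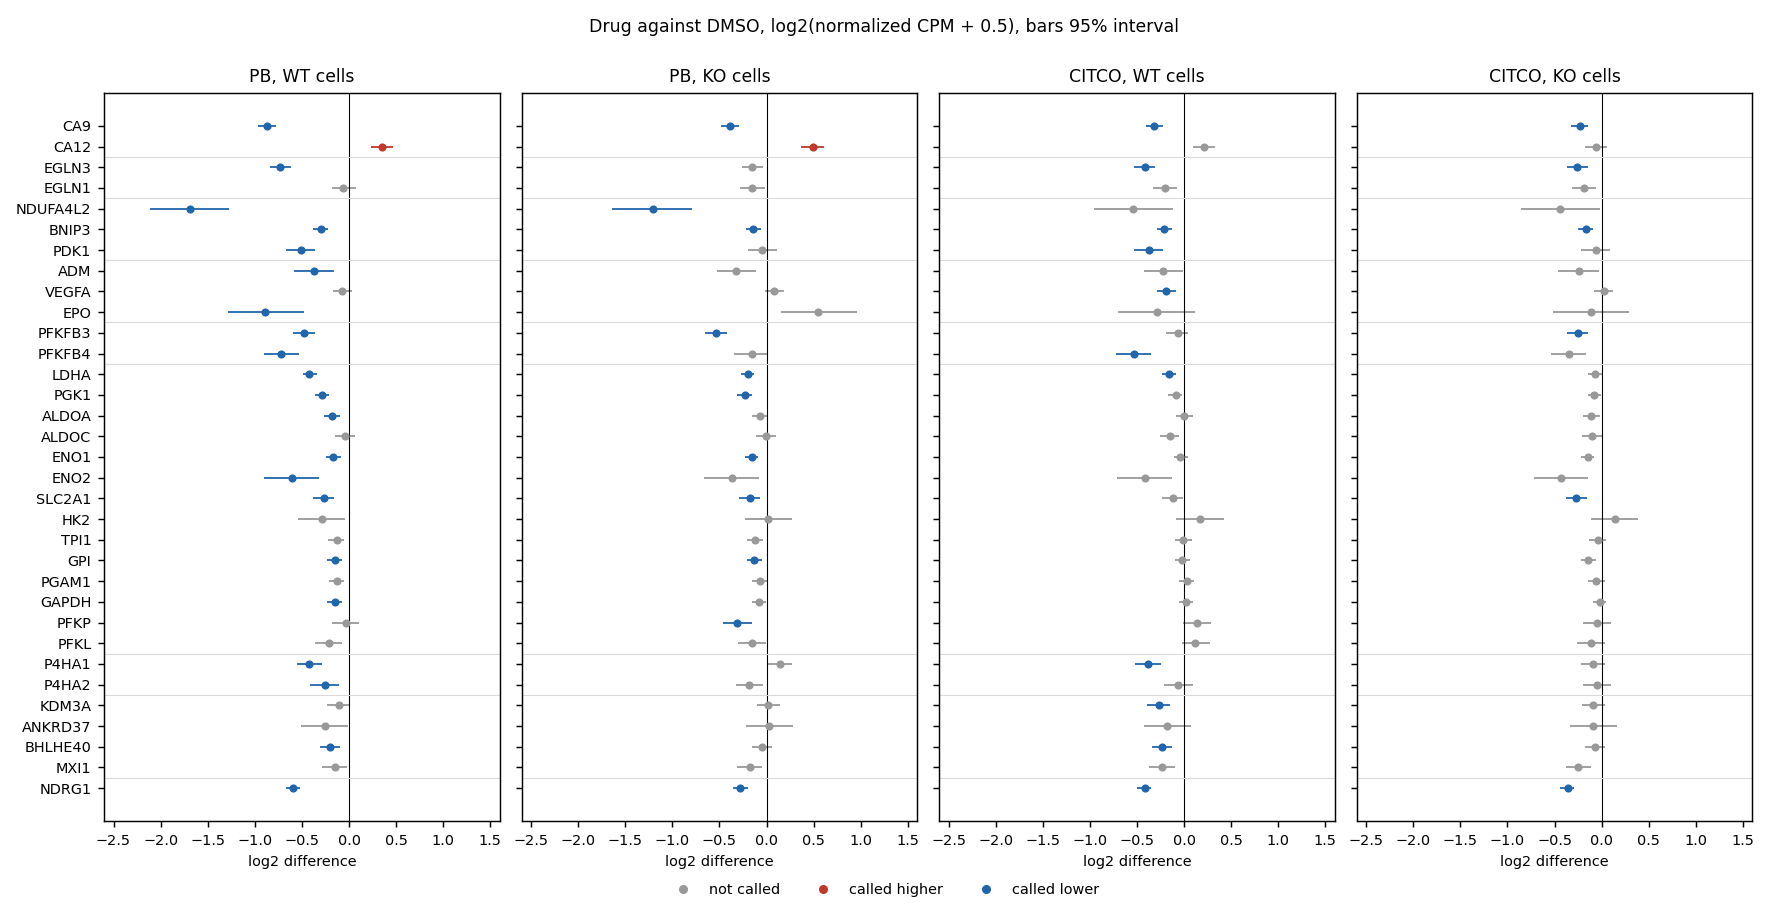
Log2 difference of each drug against DMSO for the 33 members in both genotypes, with 95% intervals, grouped by role. Most points lie left of 0, the number called falls from 22 (PB, WT) to 12 (PB, KO), 11 (CITCO, WT) and 6 (CITCO, KO), and CA12 is the member called higher.

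The PB response differed between genotypes for 8 members by the interaction term of the same fit, each with the higher (less negative or positive) difference in KO cells, where 1.01% of all loci were called (0.798% higher, 0.209% lower). The differences of responses were 1.44 for EPO (95% interval 0.87 to 2.02), 0.58 for EGLN3 (0.43 to 0.74), 0.56 for P4HA1 (0.38 to 0.75) and 0.55 for PFKFB4 (0.29 to 0.81). They were 0.49 for CA9 (0.35 to 0.62), 0.47 for PDK1 (0.25 to 0.69), 0.32 for NDRG1 (0.21 to 0.43) and 0.22 for LDHA (0.12 to 0.32). EPO passed the filter through the KO libraries only, and its WT PB values came from 2 and 8 reads. For NDUFA4L2 the difference was 0.48 with an interval of -0.12 to 1.08, and for PGK1 0.05 (-0.05 to 0.15), neither called. PFKFB3 (-0.06, -0.22 to 0.10) and CA12 (0.14, -0.03 to 0.31) were not called either. The term is built from the PB contrasts that were in view, so it is a description. With a constant prior variance 0 members were called. The count was 5 without WT DMSO replicate 1, WT PB replicate 2, KO DMSO replicate 1 or KO DMSO replicate 2, 4 without KO PB replicate 1 or KO PB replicate 2, and 5 when the CITCO libraries were left out. The authors' deposited table named as KO PB against WT PB correlated at r = 0.993 over 14161 loci with this difference of responses and at r = 0.269 with the comparison it is named for, and 6 of 30 members had an FDR under 0.05 in it, all higher. For CITCO 0 of 33 members were called by limma for a difference of responses, where 0.336% of loci were called (0.108% higher, 0.228% lower); 10 members had an unadjusted p under 0.05, and 3 were called without WT DMSO replicate 2.

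**Figure D3:**
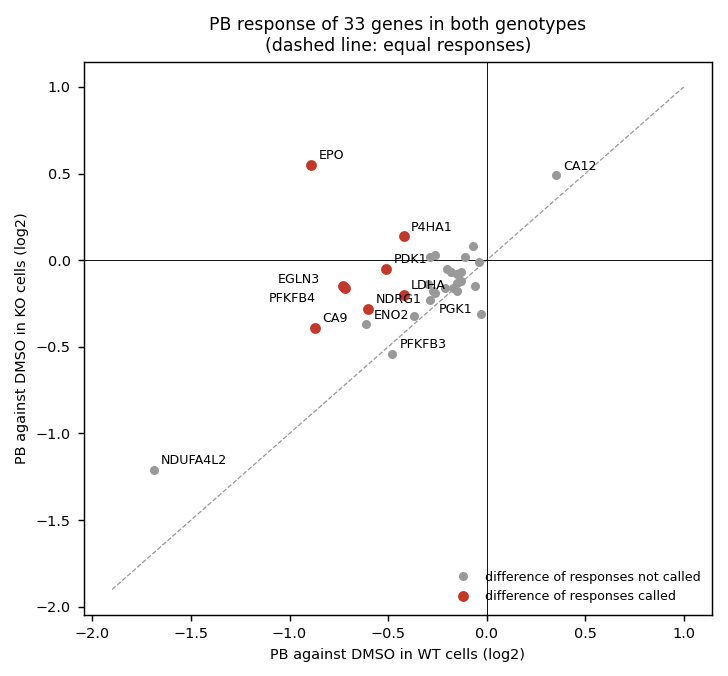
PB against DMSO in KO cells plotted against the same difference in WT cells for 33 members, both as log2, with the line of equal responses dashed. The 8 members in red, whose responses differed by the interaction term, lie above the line, and NDUFA4L2 is the lowest in both genotypes.

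The PB responses of the genotypes, which share no library, had the same sign for 27 of 33 members (Pearson r = 0.58, Spearman rho = 0.391 across genes, which are not independent replicates). Over all 15792 loci the sign was the same for 9866, r was 0.427 and rho was 0.333. For CITCO 26 of 33 had the same sign (r = 0.677, rho = 0.615), against 7957 of 15792, r = 0.171 and rho = 0.0324 over all loci. The PB contrasts were in view when the members were listed, so this agreement is a description. Most member differences were negative in both genotypes, so the counts of like sign largely follow that common direction and do not show gene-by-gene agreement.

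The comparison of genotypes gave the largest median differences. Under DMSO 32 of 33 members were higher in KO than in WT cells and none lower, where 57.7% of all loci were called (28.3% higher, 29.4% lower), and the median member difference was 0.70. The 11 members at least 2-fold higher were ENO2 (4.02, SE 0.14), PFKFB4 (2.20, SE 0.088, adjusted p = 2.95e-13), ADM (1.83), NDRG1 (1.69), CA12 (1.56), EGLN3 (1.42), P4HA1 (1.34), SLC2A1 (1.18), P4HA2 (1.12), NDUFA4L2 (1.11) and HK2 (1.05). ENO2 and EPO reached 1 CPM in no WT library and passed the filter through the KO libraries alone, so their direction was set by the filter and no p is given for them. PFKP (0.04) was not called, and CA9 (0.14, adjusted p = 0.0128) and VEGFA (0.17, adjusted p = 0.00493) differed least among those called. Under PB 32 were higher and PFKP lower (-0.23, or 0.01 with each library scaled to its total), where 58.3% of loci were called (29.4% higher, 28.9% lower), with a median of 0.76. Of them 15 were at least 2-fold higher, led by ENO2 (4.26), PFKFB4 (2.75), EPO (2.30), NDRG1 (2.01) and EGLN3 (2.00). Under CITCO 31 were higher and none lower, where 59% of loci were called (29.3% higher, 29.8% lower), with a median of 0.75. Of them 14 were at least 2-fold higher, led by ENO2, then PFKFB4 (2.38), ADM (1.80) and NDRG1 (1.75), and PFKL (0.04) and PFKP (-0.14) were not called. Scaling each library to its total moved the median of all loci by 0.25, 0.24 and 0.23 under DMSO, PB and CITCO, and that of the members to 0.97, 1.01 and 1.01. With it 8291 loci were called higher and 2312 lower under DMSO, where the deposited scaling gave 4462 and 4644. The split was 8147 and 2387 under PB (deposited scaling 4646 and 4568) and 8090 and 2511 under CITCO (4622 and 4702). Members called with it numbered 33, 32 and 32, all higher. The marker sums given above move with genotype, though single markers within them do not all go the same way, and their part in these differences was not tested.

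**Figure D4:**
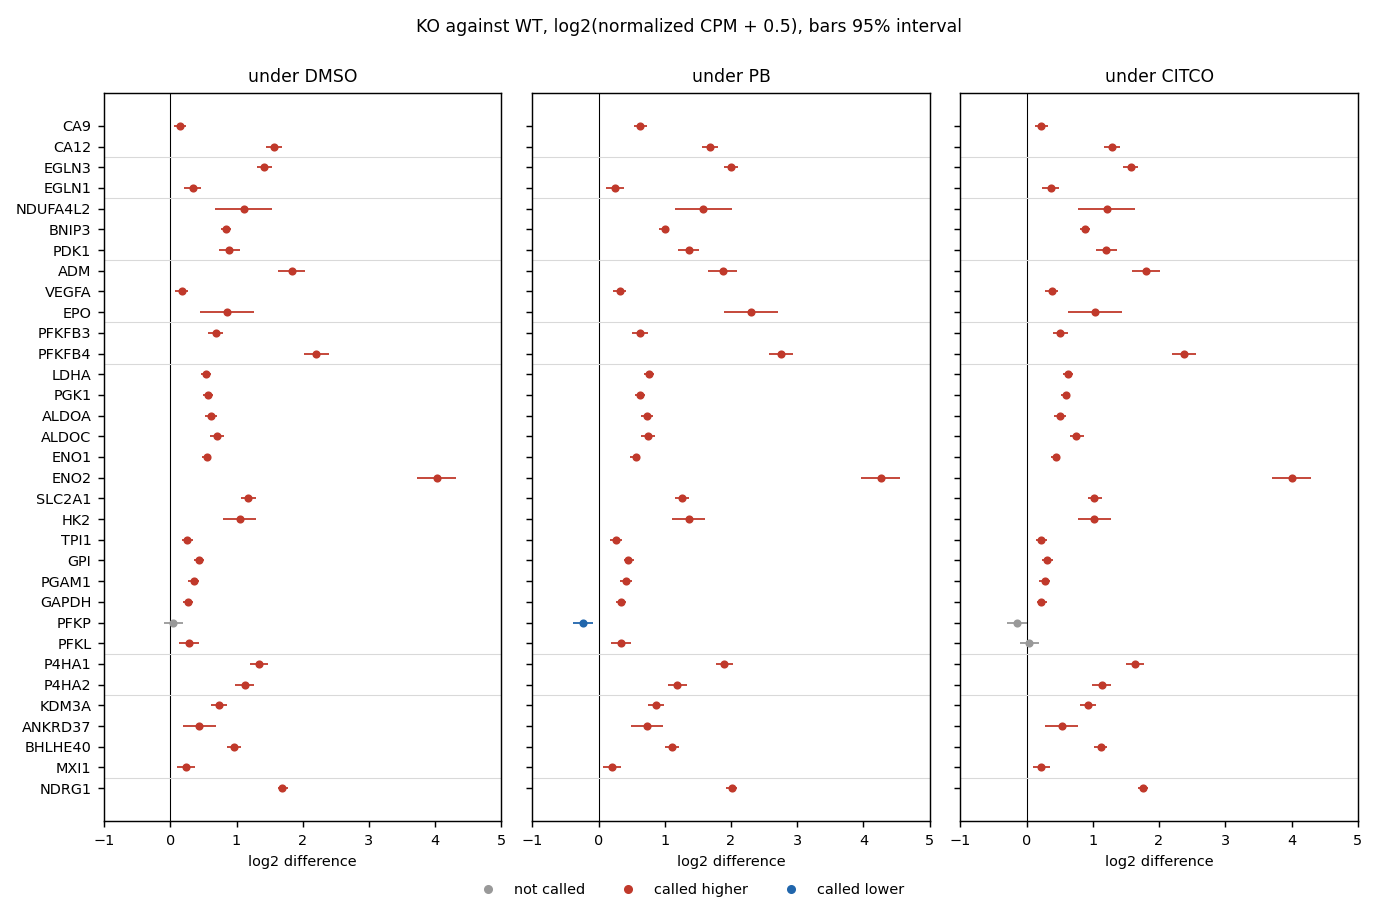
Log2 difference of KO against WT for the 33 members under each treatment, with 95% intervals. Nearly all points lie right of 0, from 0.04 (PFKP) to 4.02 (ENO2) under DMSO, and PFKP under PB is the point called lower, at 0.01 with total scaling.

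Carbonic anhydrases on the cell surface turn carbon dioxide into bicarbonate and protons and so help a glycolytic cell to handle acid; CA9 is among the most used markers of hypoxia. CA9 in WT cells stood at 159.6 and 158 under DMSO, 83.8 and 89.1 under PB, and 129.9 and 125 under CITCO. The KO libraries held 179 and 171 under DMSO, 135 and 133 under PB, and 153 and 145 under CITCO. The 6 groups did not overlap with their neighbours in order, and both WT PB libraries were the lowest of all. The WT PB mean was 45.5% below the WT DMSO mean, whereas in KO cells the fall was 23.5%. With CITCO it fell in WT (-0.32, SE 0.046, adjusted p = 0.000574) and KO cells (-0.23, SE 0.046, adjusted p = 0.017). Both calls were lost with a constant prior variance (limma adjusted p = 0.0529 and 0.199). The KO call was also lost in each fit that left out 1 of the libraries compared. KO against WT differed by 0.14 under DMSO, 0.63 under PB and 0.22 under CITCO. CA12, a related surface enzyme, went the other way with PB. Its WT levels were 20.1 and 19.0 under DMSO, 24.8 and 25.3 under PB, and 22.1 and 23.1 under CITCO. Its KO levels were 58.3 and 58.6 under DMSO, 83.2 and 81.1 under PB, and 55.6 and 56.5 under CITCO, and KO PB was the highest group. Both PB groups lay above their DMSO groups without overlap, while CITCO gave 0.21 in WT and -0.06 in KO cells, neither called. PB against CITCO in KO cells was 0.55 (SE 0.057).

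Of the oxygen sensors, EGLN3 is itself a HIF target and so part of a feedback. EGLN3 in WT cells stood at 61.0 and 59.6 under DMSO, 37.9 and 34.4 under PB, and 45.5 and 44.6 under CITCO. In KO cells the values were 160.0 and 164 under DMSO, 143 and 149 under PB, and 138 and 132 under CITCO. WT and KO libraries were far apart, and within each genotype both drugs lay below DMSO without overlap. The difference was called for PB in WT cells (log2 -0.73) and not in KO cells (-0.15). An antisense locus, EGLN3-AS1, is also in the table, and whether counting used strand is not stated. EGLN1, the main sensor in most tissues, ranged from 63.1 to 75.2 CPM in WT and from 79.5 to 98.5 in KO libraries. It was called with neither drug in either genotype (-0.06 (PB, WT), -0.20 (CITCO, WT), -0.15 (PB, KO) and -0.19 (CITCO, KO)), and KO against WT was 0.34 under DMSO (adjusted p = 9.79e-05).

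Among members that act on mitochondria, NDUFA4L2, which HIF induces and which lowers the activity of respiratory complex I, had the largest PB difference of the members. Its WT values were 2.90 and 2.73 under DMSO, 0.285 and 0.839 under PB, and 1.66 and 1.90 under CITCO, and the WT PB values came from 17 and 47 reads. Its KO values were 6.31 and 6.98 under DMSO, 3.08 and 2.14 under PB, and 4.81 and 4.71 under CITCO. PB libraries were lowest within each genotype, the range of KO PB held both WT DMSO values, and the log2(CPM + 0.5) scale understates folds at such levels. The WT PB mean was 80.0% below WT DMSO, and the KO PB mean 60.7% below KO DMSO. With CITCO it was -0.54 (interval -0.96 to -0.12) in WT and -0.44 (-0.86 to -0.02) in KO cells, neither called. PDK1, which inhibits pyruvate dehydrogenase and so keeps pyruvate out of mitochondria, stood in WT cells at 30.7 and 27.2 under DMSO, 21.3 and 18.9 under PB, and 21.3 and 23.2 under CITCO. Values in KO cells were 52.0 and 56.2 under DMSO, 52.5 and 52.0 under PB, and 52.3 and 51.2 under CITCO, a narrow range in which the groups overlapped. Only the WT drug groups lay clear of their DMSO group. BNIP3, a receptor for mitophagy, stood in WT cells at 179.6 and 179 under DMSO, 148 and 143 under PB, and 155 and 155 under CITCO. KO values were 318 and 323 under DMSO, 288 and 294 under PB, and 280.5 and 289 under CITCO. It was called lower in all 4 drug comparisons (-0.30 (PB, WT), -0.21 (CITCO, WT), -0.14 (PB, KO) and -0.17 (CITCO, KO)), as were CA9 and NDRG1, though BNIP3 shares sequence with BNIP3P1, a pseudogene locus in the table. With CITCO in KO cells each lost this call with a constant prior variance (limma adjusted p = 0.271 for BNIP3, 0.199 for CA9 and 0.0626 for NDRG1). There BNIP3 also lost its call with total scaling (adjusted p = 0.0606). BNIP3 and CA9, unlike NDRG1, lost it in each fit that left out 1 of the libraries compared.

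The secreted signals comprise ADM, VEGFA and EPO. ADM, a vasodilator peptide, stood in WT cells at 12.2 and 16.8 under DMSO, 10.9 and 11.0 under PB, and 12.4 and 12.02 under CITCO. Under the KO genotype the values were 52.1 and 52.1 under DMSO, 39.9 and 43.2 under PB, and 43.5 and 44.3 under CITCO, 3.60-fold the WT mean under DMSO. The WT DMSO duplicates were the furthest apart of its pairs, and its PB difference in WT cells was -0.37 (SE 0.10). VEGFA, which drives vessel growth and is the best known HIF target, lay between 115 and 135 CPM in WT and 144 and 158 in KO libraries. It was called for CITCO in WT cells (-0.19, SE 0.047, adjusted p = 0.0421) and for genotype (0.17 under DMSO, 0.32 under PB and 0.38 under CITCO), while PB gave -0.07 and 0.08. EPO, the hormone of red cell production, rested on few reads. Its WT values were 0.558 and 0.608 under DMSO, 0.0335 and 0.143 under PB, and 0.343 and 0.430 under CITCO, with 2 and 8 reads in the WT PB libraries. Its KO values were 1.86 and 1.14 under DMSO, 2.52 and 2.26 under PB, and 1.37 and 1.26 under CITCO. Every KO library was above every WT library, and the PB libraries were lowest in WT and highest in KO cells. The WT call was lost with a pseudocount of 2 and without WT PB replicate 1.

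PFKFB3 and PFKFB4 make fructose 2,6-bisphosphate, the strongest activator of the committed step of glycolysis. PFKFB3 in WT cells stood at 50.4 and 55.3 under DMSO, 37.7 and 37.9 under PB, and 49.7 and 50.6 under CITCO. KO levels were 86.5 and 83.9 under DMSO, 58.1 and 59.1 under PB, and 72.6 and 70.2 under CITCO. PB was the lowest group in each genotype, and the fall was -0.54 in KO cells and -0.48 in WT cells. CITCO differed from DMSO in KO cells (-0.25, adjusted p = 0.0305) and was not called in WT cells (-0.07), and the difference between these responses (-0.18, interval -0.34 to -0.02) was not called. PFKFB4 in WT cells stood at 6.47 and 6.65 under DMSO, 3.75 and 3.84 under PB, and 4.35 and 4.42 under CITCO. KO values were 32.8 and 31.1 under DMSO, 27.0 and 30.0 under PB, and 25.7 and 24.1 under CITCO, so that KO DMSO was 4.87-fold WT DMSO. The lowest KO library exceeded the highest WT library by a wide margin, and both drugs lowered the WT level without overlap.

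Glucose enters through SLC2A1 (GLUT1), the transporter of most growing cells. It stood in WT cells at 47.5 and 46.3 under DMSO, 38.7 and 39.0 under PB, and 41.8 and 44.6 under CITCO. In KO cells it stood at 105 and 108 under DMSO, 96.5 and 91.5 under PB, and 89.8 and 86.8 under CITCO, and each drug group lay below its DMSO group without overlap. It was called lower with PB in both genotypes and with CITCO in KO cells (-0.27, SE 0.052, adjusted p = 0.0141). HK2, the hexokinase that HIF induces, lay at 2.91 to 4.94 CPM in WT and 8.57 to 10.1 CPM in KO libraries. It was called with neither drug against DMSO (-0.29 (PB, WT), 0.17 (CITCO, WT), 0.02 (PB, KO) and 0.14 (CITCO, KO)) and stood 2.20-fold higher in KO than in WT cells under DMSO (adjusted p = 6.03e-07).

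The enzymes of the shared part of glycolysis differed by small steps between treatments. ENO1 stood in WT cells at 2009 and 1971 under DMSO, 1758 and 1789 under PB, and 1948 and 1934 under CITCO, and in KO cells at 3036 and 2795 under DMSO, 2620.4 and 2597 under PB, and 2634 and 2619 under CITCO. GAPDH stood in WT cells at 1305 and 1318 under DMSO, 1159 and 1199 under PB, and 1339 and 1324 under CITCO, and in KO cells at 1626 and 1526 under DMSO, 1494 and 1493 under PB, and 1576 and 1536 under CITCO. ALDOA stood in WT cells at 957 and 977 under DMSO, 808 and 896 under PB, and 971 and 966 under CITCO, and in KO cells at 1535 and 1435 under DMSO, 1441 and 1392 under PB, and 1379.9 and 1373 under CITCO. In these 3 enzymes WT PB was the lowest group, by 10.9% (ENO1), 10.1% (GAPDH) and 11.9% (ALDOA) against WT DMSO, and GAPDH has a pseudogene locus in the table, GAPDHP44. GPI, which isomerises glucose 6-phosphate, had WT levels of 499 and 493 under DMSO, 447 and 445 under PB, and 483 and 492 under CITCO. Its KO levels were 697 and 641 under DMSO, 619 and 603 under PB, and 605 and 606 under CITCO. It was called lower with PB in WT (-0.15) and KO cells (-0.13). LDHA, which turns pyruvate into lactate and regenerates NAD for glycolysis, stood in WT cells at 1077 and 1047 under DMSO, 814 and 776 under PB, and 934 and 967 under CITCO. The KO libraries held 1518 and 1577 under DMSO, 1337 and 1359.8 under PB, and 1448 and 1491 under CITCO. Its groups did not overlap with their neighbours in order, and PB was lowest in each genotype, with falls of 25.1% (WT) and 12.9% (KO). CITCO gave -0.16 in WT cells (SE 0.035, adjusted p = 0.0188), and the pseudogene locus LDHAP4 is in the table. PGK1, which makes ATP in glycolysis, stood in WT cells at 577 and 564 under DMSO, 480.0 and 456 under PB, and 539 and 529.7 under CITCO. Values in KO cells were 862 and 835 under DMSO, 721 and 722 under PB, and 808 and 799.7 under CITCO. PB again was lowest in each genotype, and CITCO gave -0.09 and -0.08, not called.

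ENO2, the neuronal enolase, passed the filter through the KO libraries only, so its difference between genotypes is a description. Its WT values were 0.625 and 0.608 under DMSO, 0.268 and 0.196 under PB, and 0.433 and 0.248 under CITCO, from 11 to 29 reads a library. Its KO values were 17.8 and 17.4 under DMSO, 13.2 and 13.9 under PB, and 13.1 and 12.6 under CITCO, so that KO DMSO was 28.6-fold WT DMSO with no overlap. The WT PB call was lost with a pseudocount of 2 and without WT PB replicate 2. PFKP, a phosphofructokinase, was the member called lower in KO than in WT cells under PB, at 34.6 and 39.6 under DMSO, 35.9 and 36.4 under PB, and 40.1 and 41.3 under CITCO in WT cells. Under the KO genotype the values were 36.1 and 40.2 under DMSO, 30.8 and 30.4 under PB, and 37.8 and 35.9 under CITCO, the KO PB pair being the lowest of all. It was called lower with PB in KO cells and not in WT cells (-0.03), a difference of -0.28 that was not called (-0.49 to -0.07). The other glycolytic enzymes (PFKL, ALDOC, TPI1 and PGAM1) were called with neither drug against DMSO in either genotype. Their drug differences ranged from -0.21 to 0.12, both PFKL in WT cells, and KO against WT under DMSO was 0.70 for ALDOC, 0.35 for PGAM1, 0.28 for PFKL and 0.25 for TPI1.

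NDRG1, a stress-response protein and a common hypoxia marker, was called lower in all 4 drug comparisons. WT values were 382 and 395 under DMSO, 249 and 264 under PB, and 286 and 293 under CITCO. KO values were 1278 and 1237 under DMSO, 1038 and 1034 under PB, and 993 and 959.6 under CITCO. The genotypes were far apart, and every drug group lay below its DMSO group without overlap. CITCO lowered it in WT (SE 0.037, adjusted p = 1.11e-06) and KO cells (SE 0.037, adjusted p = 2.47e-05), by 25.4% and 22.3% of the DMSO means. P4HA1 and P4HA2 are the catalytic subunits of collagen prolyl 4-hydroxylase, which stabilises the collagen helix. P4HA1 in WT cells stood at 36.6 and 33.2 under DMSO, 25.6 and 26.3 under PB, and 25.1 and 28.1 under CITCO. KO levels were 86.8 and 90.8 under DMSO, 99.9 and 96.3 under PB, and 82.9 and 84.1 under CITCO. Both drugs lay below DMSO in WT cells, whereas KO PB was the highest group. P4HA2 stood in WT cells at 31.5 and 31.4 under DMSO, 26.8 and 25.6 under PB, and 32.5 and 28.0 under CITCO. In KO cells it stood at 73.3 and 64.9 under DMSO, 61.3 and 59.9 under PB, and 66.9 and 66.2 under CITCO, 2.20-fold the WT mean under DMSO. It was called lower with PB in WT cells (-0.26), and an antisense locus, P4HA2-AS1, is in the table.

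Of the 4 members grouped here under transcription and chromatin, 1 was called with PB and 2 with CITCO in WT cells, and none in KO cells. In WT cells 6.42% of all loci were called with PB and 2.2% with CITCO. KDM3A, a histone H3K9 demethylase, stood in WT cells at 37.3 and 34.5 under DMSO, 34.1 and 32.5 under PB, and 29.4 and 30.1 under CITCO. The KO libraries held 61.4 and 59.3 under DMSO, 62.0 and 60.7 under PB, and 56.7 and 56.6 under CITCO, and it was called in WT cells with CITCO and in no other drug comparison against DMSO (-0.27, adjusted p = 0.0171). BHLHE40, a transcriptional repressor, stood in WT cells at 58.5 and 59.5 under DMSO, 50.7 and 51.5 under PB, and 51.9 and 48.2 under CITCO. Values in KO cells were 116 and 113 under DMSO, 114 and 109 under PB, and 111 and 107 under CITCO, with falls called in WT cells under PB (-0.20) and CITCO (-0.24, adjusted p = 0.015). MXI1, which opposes MYC, and ANKRD37 were called with neither drug against DMSO. MXI1 lay between 39.3 and 48.8 CPM in WT and 45.0 and 58.1 in KO libraries, and ANKRD37 between 4.91 and 6.89 and between 7.52 and 8.84 CPM.

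Set side by side, PB and CITCO differed in WT cells for 14 members, all lower with PB, where 6.28% of all loci were called (2.65% higher, 3.63% lower). The largest differences were NDUFA4L2 (-1.15), CA9 (-0.56), HK2 (-0.46), PFKFB3 (-0.40), PFKL (-0.34), EGLN3 (-0.32), LDHA (-0.26) and PGK1 (-0.19). EPO differed by -0.60 and was not called. HK2 lost its call with a constant prior variance, when the libraries of other groups were left out, by edgeR and by DESeq2. PFKL lost its call with a constant prior variance and by edgeR, and PGK1 with a constant prior variance. In KO cells 5 were lower and 2 higher with PB, where 5.48% of loci were called (3.57% higher, 1.91% lower): NDUFA4L2 (-0.77), PFKFB3 (-0.28), PFKP (-0.26), PGK1 (-0.16) and LDHA (-0.12) were lower, and CA12 (0.55) and P4HA1 (0.23) higher. EPO (0.67) was not called there. In KO cells P4HA1 lost its call with total scaling, and with a constant prior variance P4HA1, NDUFA4L2, PFKP, PGK1 and LDHA lost theirs. The labels give no doses, so the drugs may not be matched. The WT count was 8 without WT PB replicate 1, WT CITCO replicate 1 or WT CITCO replicate 2, and the KO count 1 without KO CITCO replicate 1 and 2 without any other of the KO libraries compared.

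HIF itself was measured as transcripts, although it is controlled mainly through protein stability. HIF1A in WT cells stood at 229 and 203 under DMSO, 171 and 161 under PB, and 188 and 191 under CITCO. Under the KO genotype the values were 337 and 341 under DMSO, 275 and 282 under PB, and 335 and 348 under CITCO. It was called lower with PB in WT (log2 -0.38, SE 0.049) and KO cells (-0.29, SE 0.049), and the difference of these responses was not called (0.09, -0.05 to 0.24). HIF1A was listed with earlier results of these data known, so its PB responses are descriptions with no p-value. The call with PB in KO cells was lost with a constant prior variance. CITCO gave -0.18 in WT (adjusted p = 0.0599) and 0.01 in KO cells. KO libraries were above WT libraries under every treatment (log2 0.65 under DMSO, 0.74 under PB and 0.84 under CITCO). EPAS1 (HIF-2 alpha) in WT cells stood at 194 and 190.2 under DMSO, 182 and 185 under PB, and 191 and 190.4 under CITCO. KO levels were 164 and 168 under DMSO, 158 and 158 under PB, and 150.5 and 143 under CITCO. It was lower in KO cells on the deposited scale (-0.21 under DMSO, -0.21 under PB and -0.38 under CITCO), but 0.05, 0.04 and -0.13 with total scaling, so that its direction under DMSO and PB depends on the scaling. CITCO lowered it in KO cells (-0.18, adjusted p = 0.0428), a call lost without each of the 4 libraries. ARNT lay between 46.7 and 51.7 CPM in WT and 50.4 and 56.7 in KO libraries and was called for genotype under DMSO alone (0.20, adjusted p = 0.00596), a call lost without WT DMSO replicate 2. With total scaling it was called under PB (0.37) and CITCO (0.30) too. VHL lay between 22.2 and 25.3 CPM throughout and was called in no comparison on the deposited scale, while with total scaling KO against WT was called under DMSO (0.24) and PB (0.24).

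**Figure D5:**
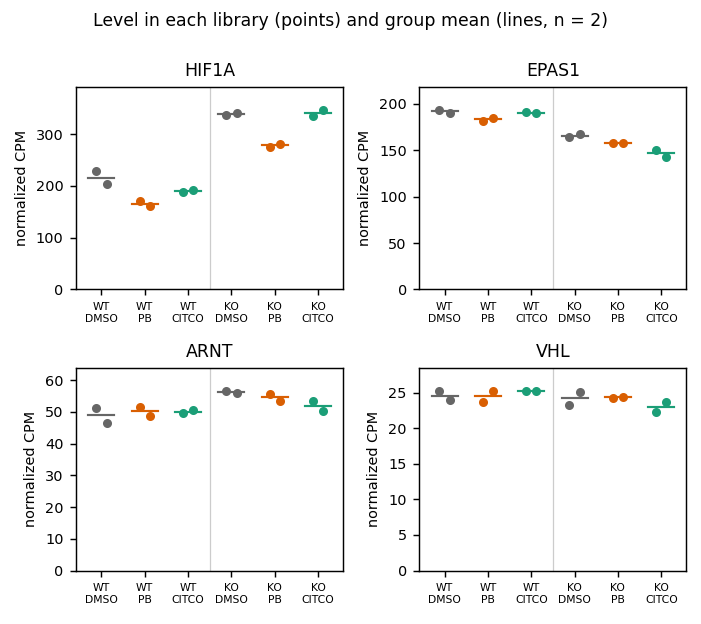
Level of HIF1A, EPAS1, ARNT and VHL in every library, in normalized CPM on axes that start at 0 (points: libraries; lines: means of 2). HIF1A is lowest in PB within each genotype and higher in KO cells, and VHL stays between 22.2 and 25.3 CPM.

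Other genes of the pathway, listed apart from the members, moved in part with them. Beside the counts below, PB called 2.66% of all loci higher and 3.76% lower in WT cells, and 3.87% and 3.09% in KO cells. For CITCO the shares were 1.18% higher and 1.02% lower in WT cells, and 0.386% and 0.424% in KO cells. Of 13 HIF pathway genes tested, 2 fell and none rose with PB in WT cells, HIF1A and its co-factor regulator CITED2 (-0.23), and the same 2 fell in KO cells (CITED2 -0.36). With CITCO in KO cells CITED2 (-0.27) and EPAS1 fell. Of 24 other hypoxia-induced genes, PB in WT cells lowered 11 and raised 2, among them PLOD2 (-0.68), PPP1R3C (-0.43) and ANGPTL4 (-0.39), with AK4 (0.21) and TFRC (0.16) higher. In KO cells PB lowered 7, among them ERO1L (-0.35), PLOD2 (-0.33) and GYS1 (-0.29), and raised CP (0.26). CITCO in WT cells lowered 5, among them PPP1R3C (-0.45), PLOD2 (-0.33) and FAM162A (-0.20), and raised TFRC (0.23), and in KO cells lowered 4 (GYS1 (-0.30), ANGPTL4 (-0.30), ZNF395 (-0.29) and PPP1R3C (-0.27)). Of 21 other genes of glycolysis and pyruvate, PB in WT cells lowered PKM (-0.30), PKLR (-0.26) and SLC2A2 (-0.22) and raised PDK4 (0.26). In KO cells those it lowered included PKLR (-0.39) and PKM (-0.20). Several of these calls rested on single libraries. With CITCO in KO cells CITED2, ANGPTL4, ZNF395 and PPP1R3C lost theirs without any 1 of the 4 libraries. With PB in WT cells AK4, TFRC, PDK4, PKLR and CITED2 lost theirs without WT DMSO replicate 2 or WT PB replicate 1. In some fits without 1 library FAM162A and TFRC lost their CITCO calls in WT cells, and GYS1 its calls with both drugs in KO cells. FAM162A also lost its call with total scaling (limma adjusted p = 0.0668), by edgeR (adjusted p = 0.179) and by DESeq2 (adjusted p = 0.170). TFRC with CITCO in WT cells lost its call by edgeR (adjusted p = 0.0568). The PB responses differed between genotypes for 5 of the 24 hypoxia-induced genes, each higher in KO cells, among them ANGPTL4 (0.45), CP (0.40) and PLOD1 (0.36), where 1.01% of all loci were called. These 3 lost their calls with a constant prior variance (adjusted p = 0.126, 0.136 and 0.244), and ANGPTL4 and PLOD1 also when the CITCO libraries were left out (adjusted p = 0.0743 and 0.0698). Leaving out 1 library ended the call of ANGPTL4 without WT PB replicate 1 or any KO library compared, and that of PLOD1 without WT PB replicate 1, KO DMSO replicate 2 or either KO PB library.

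Between genotypes under DMSO, where 28.3% of all loci were called higher and 29.4% lower, 18 of the 24 other hypoxia-induced genes were higher in KO cells and 5 lower, among them DDIT4 (1.64), CP (1.48) and SLC16A3 (1.45) and TFRC (-1.10), LOXL2 (-0.82) and PPP1R3C (-0.53) on the lower side. Of the 21 other glycolysis and pyruvate genes 4 were higher, among them LDHB (0.72), SLC16A1 (0.55) and PKM (0.26), and 9 lower, among them PDK4 (-1.79), PDK2 (-1.11) and SLC2A2 (-0.91), the last being the glucose transporter of liver. LDHB ranged from 0.36 to 1.08 over fits without 1 library and lost its call without WT DMSO replicate 2 or KO DMSO replicate 1. Of the 13 HIF pathway genes 6 were higher, among them ARNT2 (0.74), HIF1A (0.65), HIF1AN (0.38) and TCEB1 (0.29), and 3 lower (CUL2 (-0.35), EP300 (-0.31) and EPAS1 (-0.21)). With total scaling CUL2 (-0.08) and EP300 (-0.05) lost their calls and EPAS1 turned, so none of these 3 was called lower under it. Under PB, where 29.4% of all loci were called higher and 28.9% lower, the 24 gave 17 higher and 5 lower, and under CITCO, where the shares were 29.3% and 29.8%, 16 and 5. The 21 gave 5 higher and 12 lower under PB, and 6 and 11 under CITCO. The 13 gave 4 and 3, and 4 and 5. ZNF395 (DMSO), EP300 (PB) and CREBBP (CITCO), all called lower in KO cells, turned to differences above 0 with total scaling.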

How the data were processed

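RNA sequencing was done on 12 libraries in 6 groups of 2. The authors deposited 1 table of normalized values per locus, a CPM-like signal that in the WT libraries equals whole reads over an effective library size. Per the submitters' processing notes, the tools included edgeR 2.12, Cuffdiff and Cufflinks (both 2.1.1), TopHat2 2.0.10, and Bowtie 1.0.0, with builds GRCh38 and GRCh37. The role of each, strand setting and annotation were not given in the sources used here. Whole reads were recovered from the steps of the signal in the 6 WT libraries, where 100% of values lay within 0.1 reads of a whole number. Reads were not recovered for the KO libraries, so tests on reads cover only comparisons within WT cells. The authors also deposited tables of log2 fold changes and p-values, used here only where named.

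Values were analysed as log2(value + 0.5), keeping 15792 of 15822 loci with at least 1 in at least 2 libraries. limma 3.58.1 (R 4.3.3) fitted 6 group means over the 12 libraries with an intensity trend, leaving 6 residual degrees of freedom. P-values were adjusted by Benjamini-Hochberg over all loci tested in each of 11 comparisons. The alternatives were a pseudocount of 2, no filter, scaling to library totals, a constant prior variance, only the libraries compared, a replicate block, leaving out each library, and, on WT reads, edgeR 4.0.16 and DESeq2 1.42.0. The scripts were tested on simulated data. The members and the lists of other genes were chosen with earlier results of these data known. Members called against DMSO or at least 2-fold apart between genotypes are given in every library, up to 8 called members per direction with statistics, and up to 4 called genes per direction of each pathway list. The design assumed CPM, and the same test was kept for the deposited signal. Results of some genes on these lists are not reported here.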

Additional observations from a re-analysis of the deposited data

Results flagged for a closer look

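For 8 members the response to PB against DMSO differed between KO and WT cells by the interaction term of the limma fit. The difference, KO minus WT on the log2 scale, was 1.44 for EPO, 0.58 for EGLN3, 0.56 for P4HA1, 0.55 for PFKFB4, 0.49 for CA9, 0.47 for PDK1, 0.32 for NDRG1 and 0.22 for LDHA. The PB contrasts were in view when the genes were chosen. With a constant prior variance none of the 8 was called. Leaving out single libraries lost the call of PFKFB4 in 8 of 8 settings, of PDK1 in 6, of LDHA in 5 and of EPO in 3.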

How the results depend on the processing

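Counts of called members moved as follows. A constant prior variance gave 3 for CITCO in WT cells, 6 for PB and 0 for CITCO in KO cells, 0 for the difference of PB responses, and 5 and 2 for PB against CITCO in WT and KO cells. Fits of only the libraries compared gave 12 (PB, WT), 5 (CITCO, WT), 5 (difference of PB responses) and 13 (PB against CITCO, KO). On whole reads edgeR gave 3 and DESeq2 6 for CITCO in WT cells, and edgeR 8 for PB against CITCO in WT cells. Leaving out 1 library gave 17 to 22 (PB, WT), 5 to 13 (CITCO, WT), 7 to 9 (PB, KO), 1 to 3 (CITCO, KO), 29 to 31, 32 to 33 and 30 to 31 (KO against WT under DMSO, PB and CITCO), 4 to 7 and 0 to 3 (differences of PB and CITCO responses), and 8 to 12 and 1 to 2 (PB against CITCO, WT and KO). The lone library left in a group was assumed to vary like the other groups. The cause of these changes was not tested, except that fewer libraries enter the reduced fits.

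Directions turned as follows. With total scaling KO against WT became 0.013 for PFKP (PB), 0.053 and 0.038 for EPAS1 (DMSO, PB), 0.236, 0.238 and 0.109 for VHL (DMSO, PB, CITCO), 0.013 for ZNF395 (DMSO), 0.046 for EP300 (PB) and 0.032 for CREBBP (CITCO). It also gave 0.018 for EPAS1 (CITCO, WT) and -0.022 for VHL (PB, KO). VHL with PB in WT cells was 0.001 by edgeR and 0.004 by DESeq2. Leaving out 1 library gave ranges across 0 for uncalled differences: ARNT -0.030 to 0.105 (PB, WT) and -0.033 to 0.102 (CITCO, WT), VHL -0.049 to 0.038 (PB, WT), -0.045 to 0.063 (PB, KO), -0.078 to 0.030 and -0.052 to 0.035 (KO against WT under DMSO and PB), EPAS1 -0.025 to 0.004 (CITCO, WT) and HIF1A -0.019 to 0.035 (CITCO, KO).

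Same-number deviations correlated at -0.246 to 0.458 over 15 group pairs (10681 loci), with 2 over 0.1. Same-numbered libraries were thus not paired across all groups. The highest value is a correlation of deviations in its group pair, and its source was not tested. A single block over all 6 groups does not model a correlation limited to some group pairs. A replicate block gave 5 called members for CITCO and 6 for PB against CITCO in KO cells, and the counts of the other comparisons as without it. SLC2A1 lost its call with PB in KO cells under the block (-0.18) although the count there was again 12. Depth limits EPO, ENO2 and NDUFA4L2, which had as few as 2, 11 and 17 reads in a WT library.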
